A study of Citrus reticulata with 36 samples.

Results

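The comparison described here set the mandarin cultivar labelled MT against the cultivar labelled WT in the ovule at 18 days after pollination (DAP), in nucellus and in integument. All 12 libraries labelled 18 DAP were used, of 36 in the series. MT libraries came from Huagan No.4 ponkan and WT libraries from Egan No.1 ponkan, both Citrus reticulata, and the labels do not spell out MT or WT. The 4 groups were MT nucellus, WT nucellus, MT integument and WT integument, each with 3 libraries named replicates 1, 2 and 3. Each cultivar is a single genotype, so cultivar and any other property of the plants sampled cannot be told apart. Per the labels, the 3 libraries of a group are biological replicates, and the trees, fruits or ovules behind each library are not named.

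The nucellus is the maternal tissue in which the embryo sac forms. In many Citrus cultivars nucellar cells also give rise to embryos without fertilization, a process known as nucellar embryony. The integument encloses the nucellus and later becomes the seed coat, and it is maternal as well. Both tissues were cut from ovules by laser capture microdissection, a method that isolates chosen cells from a section. The small amount of RNA was amplified before sequencing.

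The files do not pair their feature identifiers (such as c6063_g1) with gene names, and no function or sequence is given here for any of them. The captured tissues could therefore not be checked against known marker genes. Features that separated the tissues at 28 and 32 DAP were used in their place. Of 137 features at least 16-fold higher in nucellus at the later stages, 129 also had every nucellus library above every integument library at 18 DAP, as did 3.49% of all tested features. Of 416 such integument features, 371 had every integument library above every nucellus library, as did 5.76% of all tested. The nucellus features took 2.61% ± 0.07 (SD, n = 3) of the counts of MT nucellus and 2.25% ± 0.73 of WT nucellus. They took 0.0373% of MT integument and 0.0267% of WT integument. The integument features took 0.652% ± 0.036 and 0.603% ± 0.158 of MT and WT integument, against 0.0276% and 0.0227% of MT and WT nucellus. Two-sided exact permutation tests of the 4 cultivar differences gave p from 0.3 to 0.7, in a design of 3 libraries against 3 where no p can go below 0.1.

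The 12 libraries held 12687779 to 20436963 counts. Of 128861 features, 57344 passed the filter on low counts and were tested. The median tested feature was at 4.91 CPM (counts scaled with TMM factors to a common library size). A count of 0 allows up to 0.147 to 0.236 CPM in a library, for counting error only. The WT replicate 3 libraries stood apart in that their 100 most abundant features took 45.6% of the counts in nucellus and 39.0% in integument, where the lowest share among the 12 libraries was 16.03%.

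Cultivar was a small part of the variation between libraries. In a principal component analysis of the 12 libraries, component 1 (37.3% of the variance) separated the tissues, which made up 99.2% of its spread. Cultivar made up 17.5% of the spread of component 2 (16.1% of the variance). On component 2 the 4 libraries numbered 3 scored between 63.0 and 149, and the 8 libraries numbered 1 or 2 between -117 and 9.20. On component 3 (9.82% of the variance) cultivar made up 69.0% of the spread. All 6 MT libraries had positive scores there and all 6 WT libraries negative ones. The pairwise correlation across features had a median of 0.926 within a cultivar and 0.922 between cultivars in nucellus. In integument these medians were 0.911 and 0.906.

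**Figure D1:**
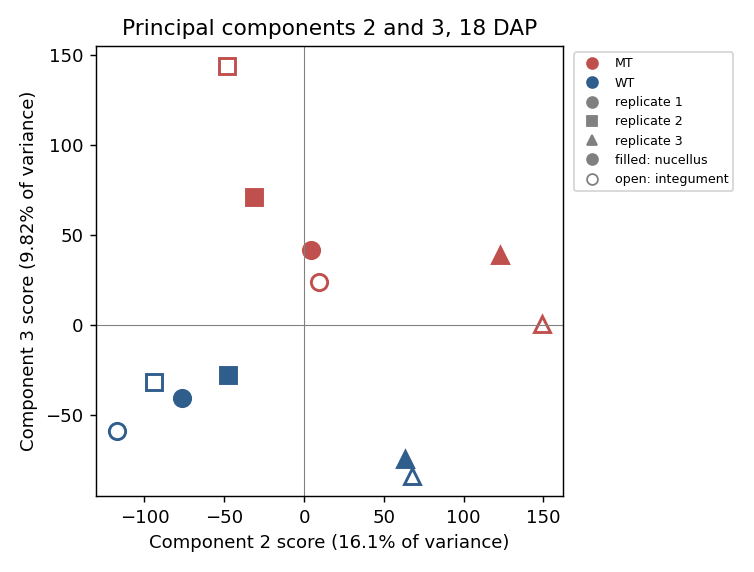
Scores of the 12 libraries of 18 DAP on the principal components 2 (x axis) and 3 (y axis) of log2 CPM, with cultivar by colour, tissue by fill and replicate by symbol. The 4 replicate 3 libraries lie to the right of the other 8, and all MT libraries lie above all WT libraries.

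In each tissue fewer features were read in MT than in WT. In nucellus, 61055, 61762 and 59573 features were above 0 in MT replicates 1, 2 and 3, and 65578, 67660 and 64072 in WT. In integument the MT libraries held 63014, 58421 and 60683, and the WT libraries 66468, 67490 and 66234. The cultivars did not overlap in either tissue. A two-sided exact permutation test gave p = 0.1 in each tissue. Adjusted by Benjamini-Hochberg over the 6 library values tested in both tissues, that p was 0.6. Depth also differed, since MT nucellus libraries averaged 14440000 counts and WT nucellus libraries 17060000. The numbers were therefore recomputed as the number expected when every library is drawn down to 12687779 counts. MT nucellus was then at 60334, 61510 and 58875 and WT nucellus at 64892, 65593 and 61940. MT integument was at 61651, 57812 and 59836 and WT integument at 66468, 64857 and 63884. The MT mean minus the WT mean was -3902 features in nucellus and -5303 in integument. Each difference had p = 0.1 in a two-sided exact permutation test, the smallest possible. At 28 DAP the difference was -1040 in nucellus (exact p = 0.9) and -2454 in integument (exact p = 0.2). At 32 DAP it was 1445 in nucellus and -2217 in integument (exact p = 0.3 for both).

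The gap was smaller, in number of features, where a higher minimum was asked. For features expected to hold at least 5 counts at equal depth, MT minus WT was -969 in nucellus (exact p = 0.5) and -2610 in integument (exact p = 0.2), and the cultivars overlapped in both tissues. For at least 10 counts it was -322 and -1877 (exact p = 0.8 and 0.3). Features at 1 CPM or more averaged 42722 in MT and 43066 in WT nucellus (exact p = 0.8), and 42843 in MT and 44549 in WT integument (exact p = 0.4). Features read in every library of 1 cultivar and in none of the other, over both tissues, all had low counts. Features limited to 1 cultivar within a single tissue were not searched for here. Of the 128861 features, 37 had 0 counts in all 6 MT libraries and at least 1 in all 6 WT libraries. They summed to between 9 and 46 counts over the 6 WT libraries. Only 6 of the 37 passed the filter on low counts and were tested. The reverse held for 1 feature, with 11 counts, and it did not pass the filter. The contrast of 37 with 1 thus lies mostly in features left out of the tests. All 37, and the 1, were read in the other cultivar in at least 1 of its 12 libraries of 28 and 32 DAP.

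**Figure D2:**
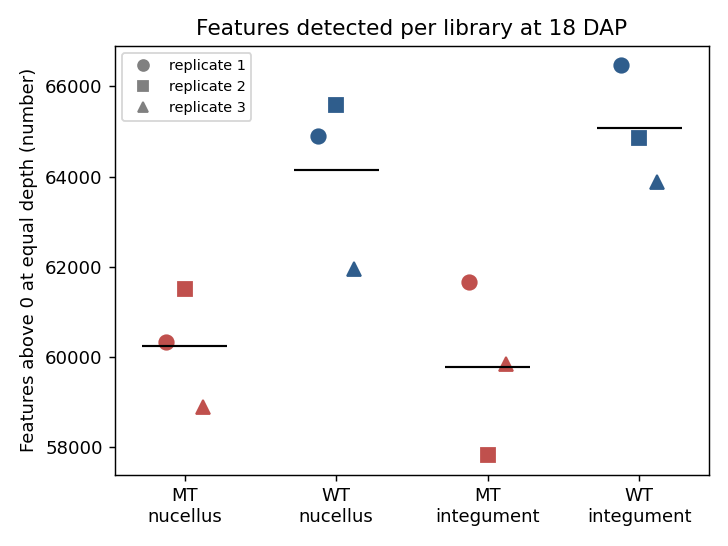
Number of features above 0 in each library of 18 DAP after drawing down to equal depth, by cultivar and tissue, with replicates as symbols and the group mean as a line. Every MT library lies below every WT library of the same tissue, and the y axis does not start at 0.

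Within nucellus 1 feature passed the threshold between the cultivars, a Benjamini-Hochberg adjusted p under 0.05 in edgeR's quasi-likelihood test fitted to all 36 libraries. This was c6063_g1, or 0.00174% of those tested, named because it was the only one called. Its level was 1.199, 0.538 and 0.604 CPM in MT nucellus and 4.75, 3.05 and 5.79 CPM in WT nucellus. All 3 MT values lay below all 3 WT values. The log2 fold change was -2.52 ± 0.40 (SE), with an adjusted p of 0.028 in edgeR. In integument the same feature was at 1.89, 1.09 and 1.97 CPM in MT and 1.62, 2.12 and 2.13 CPM in WT, and the groups overlapped (log2 fold change -0.25, edgeR adjusted p = 0.901). The test of the nucellus difference against the integument difference gave -2.14 ± 0.31, with an unadjusted p of 6.5e-06 and an adjusted p of 0.373 in limma. The call in nucellus was lost without MT nucellus replicate 2 or 3, without WT nucellus replicate 1 or 3, or without WT integument replicate 2, which enters only the shared estimate of spread.

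Within integument 4 features passed, or 0.00698%, and all 4 were lower in MT. They were chosen for description after their values were seen, because no other feature was called. c1342_g1 had 0 counts in all 3 MT libraries and was at 1.36, 1.32 and 1.42 CPM in WT. With 3 counts taken as the floor over the MT group, the WT sum was 21.3-fold higher (edgeR adjusted p = 0.0153). That figure allows for counting error in MT only, and not for error in WT or the spread between libraries. It was read in MT nucellus, at 0.300, 0.673 and 0.604 CPM, below the 1.75, 1.68 and 1.21 CPM of WT nucellus. c63760_g1 had 1 count in MT integument and 52 in WT, which gives a ratio of 45.4 with an exact 95% interval from 7.81 to 1829 for counting error only (edgeR adjusted p = 0.0153). In nucellus its MT values ran from 0.336 to 0.808 CPM and its WT values from 0.404 to 1.36 CPM, and they overlapped.

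The remaining pair were low in MT without being at 0. c64041_g1 was at 0.236, 0.320 and 0.282 CPM in MT integument and at 3.43, 1.98 and 1.66 CPM in WT integument. MT minus WT was -3.05 ± 0.49 on the log2 scale (edgeR adjusted p = 0.0153). c7758_g1 was at 0.825, 0.192 and 0.352 CPM in MT and at 4.53, 3.02 and 4.14 CPM in WT integument. Its log2 fold change was -3.06 ± 0.53 (edgeR adjusted p = 0.0414). The MT and WT integument values of both features did not overlap. In nucellus c64041_g1 differed by -0.88 ± 0.43 and c7758_g1 by -1.30 ± 0.49 on the log2 scale, and neither passed there (edgeR adjusted p = 0.662 and 0.557).

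The 5 called features had means of at most 4.53 CPM in any group of 18 DAP, below the median of the tested features. The 3 MT libraries of the tissue in which each was called held between 0 and 37 of its counts in all, and this depth limits the precision of each fold change. At the later stages none of the 5 passed. Over the 20 differences of the 5 features at 28 and 32 DAP in both tissues, 11 were negative and the log2 fold changes ran from -0.58 to 1.12. All 4 later differences of c7758_g1 were negative, from -0.58 to -0.11, and its MT integument libraries lay below the WT ones at 28 and 32 DAP as well. The smallest unadjusted p among the 20 was 0.106 and the smallest adjusted p 0.601 (edgeR). The test of the 18 DAP difference against the later ones did not pass for any of the 5. The smallest adjusted p was 0.464, for c1342_g1 (limma). No integument feature was called without MT integument replicate 2 or 3 or WT integument replicate 1 or 2. Without WT nucellus replicate 1 of 28 DAP, which enters only the estimate of spread, 16 were called.

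**Figure D3:**
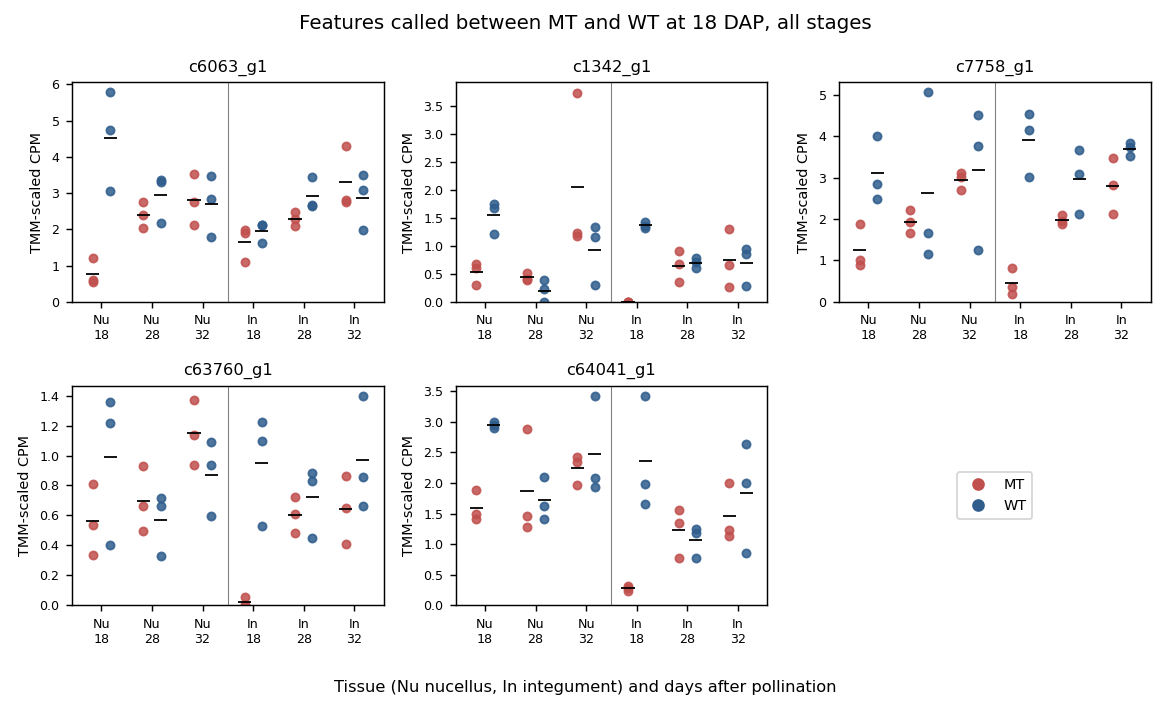
TMM-scaled CPM of the 5 features called at 18 DAP in every library, by tissue and days after pollination (x axis), with MT and WT by colour and group means as lines. At 18 DAP the MT points lie below the WT points in the tissue where the feature was called, and at 28 and 32 DAP, where none passed, the order of the cultivars varies between features, with c7758_g1 below WT in integument at every stage.

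Many more features had a small p before adjustment. At an unadjusted p under 0.05, edgeR listed 4304 features in nucellus (7.51%), of which 2018 were higher and 2286 lower in MT. It listed 5095 in integument (8.88%), of which 2169 were higher and 2926 lower. The median absolute log2 fold change was 0.37 in nucellus and 0.39 in integument.

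Among features at or above the median level, none passed in either tissue. Those with the smallest p are described as not called. They were taken only from features whose MT and WT libraries of that tissue did not overlap. In nucellus c21698_g1 was at 60.5, 69.9 and 69.9 CPM in MT and at 33.7, 27.7 and 37.1 CPM in WT, without overlap. MT minus WT was 1.03 ± 0.20 on the log2 scale (edgeR adjusted p = 0.298). c30050_g1 lay between 4.84 and 7.13 CPM in MT nucellus, below the 11.4 to 18.1 CPM of WT nucellus (log2 fold change -1.40, edgeR adjusted p = 0.298). c16625_g1 had the largest difference of those named, with 68.5, 18.7 and 19.5 CPM in MT against 1.87 to 7.07 CPM in WT nucellus (log2 fold change 2.93, edgeR adjusted p = 0.346). c78235_g1 lay between 3.96 and 8.09 CPM in MT nucellus, below the 13 to 21.6 CPM of WT nucellus (-1.49, edgeR adjusted p = 0.446). The MT and WT integument libraries of c30050_g1, c16625_g1 and c78235_g1 did not overlap either, in the same directions. Their integument log2 fold changes were -0.63, 1.45 and -0.72 (edgeR adjusted p = 0.504, 0.461 and 0.548).

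In integument c83538_g1 came closest to the threshold. It lay between 128 and 143 CPM in MT, above the 64.8 to 80.3 CPM of WT (log2 fold change 0.85, edgeR adjusted p = 0.0753). c127234_g1 was at 17.5 to 24.7 CPM in MT and 9.64 to 11.1 CPM in WT integument (1.02, edgeR adjusted p = 0.093). Lower in MT were c62555_g1 at 1.90 to 3.77 against 9.37 to 16.2 CPM (-2.02, edgeR adjusted p = 0.102) and c107994_g1 at 2.37 to 4.13 against 5.88 to 10.7 CPM (-1.48, edgeR adjusted p = 0.138). In nucellus c127234_g1 was also higher in every MT library (0.70, edgeR adjusted p = 0.446), and the groups of c107994_g1 overlapped (-0.38, edgeR adjusted p = 0.841).

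To estimate the cultivar difference over both tissues, each nucellus library was averaged on the log2 CPM scale with the integument library of the same cultivar and number. The labels do not say that such libraries come from the same ovules. Their deviations from the group means correlated across features in 5 of 6 units by more than 0.1, with r from 0.0525 to 0.402. Same-numbered MT and WT libraries of a tissue had a similar range, 0.0421 to 0.420, over 0.1 in 4 of 6 pairs. Whether the tissues of a unit share a source was not tested. Nucellus and integument libraries of the same cultivar and number were treated as 1 unit, which left 3 units a side. With limma on these units 0 features (0%) passed, and the smallest adjusted p was 0.161. At an unadjusted p under 0.05, 5930 features (10.3%) were listed, 2548 higher in MT (4.44%) and 3382 lower (5.9%). A fold change over 2 was estimated for 4276 features (7.46%), 1019 higher and 3257 lower, a balance that varied with abundance, as given below. With all 12 libraries taken as independent, which they are not where units share a source, edgeR called 363, of which 189 were higher and 174 lower. Units of different cultivars were hardly farther apart than units of the same one, at a root mean square log2 difference of 0.852 against 0.809 within MT and 0.802 within WT (one-sided exact permutation p = 0.2, where 0.1 is the smallest possible).

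The features named next had the smallest p among those at or above the median level with all MT units on 1 side of all WT units. Separation of the units was thus a condition of the choice. Their libraries were also separated within both tissues, and none was called. c38522_g1 was at 172, 192 and 177 CPM in MT nucellus and 96.6, 120 and 94.1 CPM in WT nucellus. In integument it was at 116, 117 and 143 CPM in MT and 62.3, 68.1 and 73.0 CPM in WT. The mean log2 fold change over the units was 0.84 ± 0.16 (limma adjusted p = 0.294). c21698_g1 was at 50.2, 51.8 and 56.9 CPM in MT integument and 31.6, 25.8 and 31.4 CPM in WT integument, beside its nucellus values above. Its mean was 0.94 ± 0.19 (limma adjusted p = 0.294). For both, every MT library lay above every WT library of the same tissue.

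Of the features lower in MT, c62555_g1 was at 5.99, 6.26 and 3.90 CPM in MT nucellus and 11.4, 18.7 and 9.63 CPM in WT nucellus. In integument it was at 3.54, 3.77 and 1.90 CPM in MT and 9.37, 16.2 and 11.8 CPM in WT. The mean log2 fold change was -1.63 ± 0.33 (limma adjusted p = 0.294). c59199_g1 was at 21.0, 24.9 and 14.2 CPM in MT nucellus against 49.9, 31.7 and 40.2 CPM in WT, and at 8.07, 7.48 and 11.7 CPM in MT integument against 26.3, 23.3 and 21.7 CPM in WT. Its mean was -1.21 ± 0.25 (limma adjusted p = 0.294). The groups of neither feature overlapped. At the later stages c62555_g1 differed by -0.00071 at 28 DAP and -0.26 at 32 DAP, and c59199_g1 by -0.13 and 0.01. The mean difference of c38522_g1 was 0.39 at 28 DAP and 0.32 at 32 DAP (limma adjusted p = 0.503 and 0.434), and that of c21698_g1 was 0.26 and 0.20 (limma adjusted p = 0.637 and 0.691).

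c38522_g1 and c83538_g1, both higher in MT in both tissues at 18 DAP, had nearly the same profile. Their log2 CPM correlated with r = 0.984 over the 36 libraries and 0.982 over the 24 libraries of the later stages alone. Both also had every MT library above every WT library in nucellus at 28 DAP and in integument at 32 DAP, where neither passed in edgeR. They were also similar in level, and whether they are copies that share reads was not tested.

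**Figure D4:**
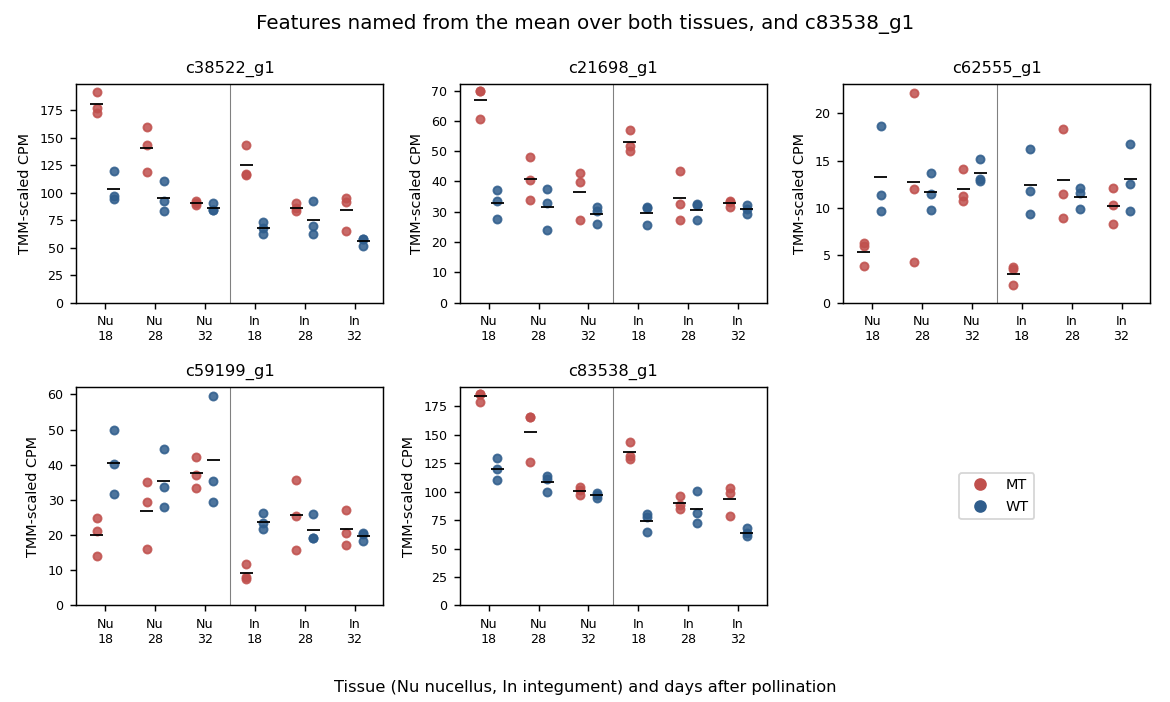
TMM-scaled CPM in every library of the 4 features named from the mean over both tissues, and of c83538_g1, by tissue and days after pollination (x axis), with MT and WT by colour and group means as lines. At 18 DAP the MT and WT points of each feature do not overlap in either tissue, and at 28 and 32 DAP the group means lie closer together. Separation at 18 DAP was a condition of choosing these features.

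The next question was whether the cultivars differed in the same features in both tissues. All 3 MT libraries lay on 1 side of all 3 WT libraries for 8522 features in nucellus (14.9%) and for 8898 in integument (15.5%). With 3 libraries a side and no difference between the cultivars, a feature is separated in this way with a probability of up to 0.1. Separation of a single feature is therefore weak evidence. Both held, in the same direction, for 2292 features (4%), of which 1392 were higher and 900 lower in MT. Both held in opposite directions for 83 features (0.145%). For 1011 features (1.76%) all 6 MT libraries lay on 1 side of all 6 WT libraries across the tissues. By p instead of separation, 1258 features were under an unadjusted 0.05 in both tissues in the same direction, 677 higher and 581 lower. They made up 29.2% of the nucellus list, where 8.88% of all tested features were on the integument list in either direction. Of the integument list they made up 24.7%, where 7.51% of all tested were on the nucellus list in either direction. Another 11 were listed in opposite directions, 3035 in nucellus alone and 3826 in integument alone. Across all tested features the log2 differences of the tissues correlated with Pearson's r = 0.294 and Spearman's rho = 0.411. Libraries of a unit may share a source, and the part of that in this likeness was not tested.

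**Figure D5:**
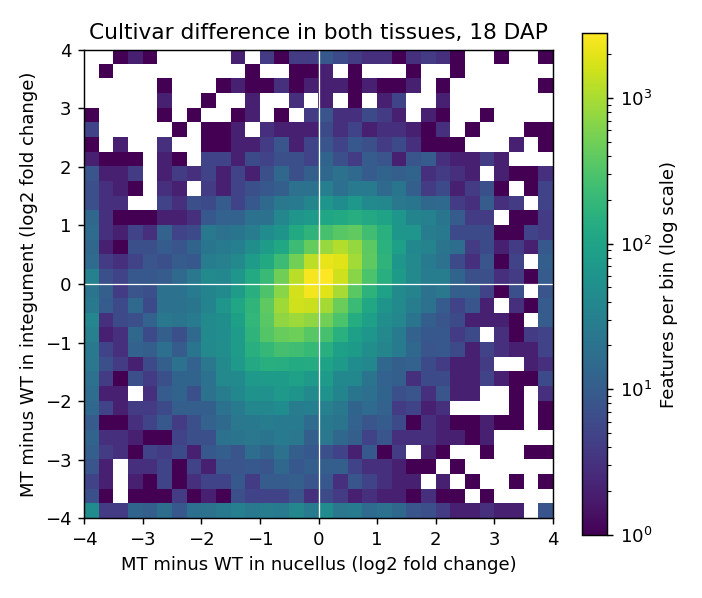
Number of tested features per bin (colour, log scale) by the MT minus WT log2 fold change in nucellus (x axis) and in integument (y axis) at 18 DAP, with values beyond the axes counted in the outermost bins. The features spread along the diagonal as well as along both axes (Pearson's r = 0.294).

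A feature listed in 1 tissue alone was not thereby shown to differ between tissues. In the test of the nucellus difference against the integument difference within units, no feature passed in limma (0%, smallest adjusted p 0.373), and none passed in edgeR with libraries taken as independent. At an unadjusted p under 0.05, 2650 features were listed (4.62%), which is under 5 in 100. The features with the smallest p at or above the median level were not called. They were taken only from features whose unit differences did not overlap between the cultivars. c101644_g1 was at 8.93 to 12.9 CPM in MT and 9.50 to 16.8 CPM in WT nucellus, which overlapped. In integument it was at 3.95, 7.99 and 2.53 CPM in MT and 12.99, 12.5 and 13.8 CPM in WT. The tissue difference was 1.47 (limma adjusted p = 0.813). c116140_g1 lay in opposite directions, with 8.55 to 9.65 CPM in MT and 14.0 to 15.6 CPM in WT nucellus, and with 13.7 to 17.9 CPM in MT and 7.46 to 12.97 CPM in WT integument. Its tissue difference was -1.34. c116727_g1 and c54555_g1 had tissue differences of 1.06 and -1.08.

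The direction of the differences varied with abundance. Tested features were ranked by mean log2 CPM at 18 DAP and split into 4 equal classes, class 1 being the lowest. At an unadjusted p under 0.05 for the unit mean (limma), class 1 listed 207 features higher in MT and 1379 lower. Class 2 listed 345 higher and 889 lower, and class 3 listed 575 higher and 651 lower. Class 4 listed 1421 higher and 463 lower. Leaving out each 18 DAP unit in turn, class 1 listed 179 to 240 higher and 1048 to 1418 lower, and class 4 listed 749 to 1322 higher and 276 to 619 lower. The counts of class 4 fell to 749 and 276 without the MT replicate 3 unit. With scaling by RLE in place of TMM, the counts were 196 and 1416 in class 1 and 1307 and 502 in class 4. Fold changes over 2 in the unit mean, with no condition on p, numbered 335 higher and 2097 lower in class 1. They numbered 352 and 848 in class 2, 182 and 204 in class 3, and 150 and 108 in class 4. The number of features read per library and the share of the most abundant features differed between the same libraries, and their part in this pattern was not tested.

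The 100 most abundant features, at 507 to 59390 CPM, showed the same lean. Of these, 69 were higher and 31 lower in MT, and their median log2 fold change was 0.39, against -0.05 over all tested features. At an unadjusted p under 0.05, 35 were higher and 0 lower (limma), against 4.44% higher and 5.9% lower of all tested. Leaving out single units gave 24 to 36 higher, and 0 or 1 lower except without the WT replicate 1 unit, where 34 were higher and 22 lower. Of the most abundant features, c65670_g1 was at 12749, 9223 and 17029 CPM in MT nucellus and 8055, 7168 and 13117 CPM in WT nucellus, which overlapped. In integument it was at 29072, 29821 and 40011 CPM in MT and 13135, 14624 and 21857 CPM in WT, without overlap. Its mean log2 fold change was 0.74 ± 0.24 (limma adjusted p = 0.327). c122222_g1 was even over MT nucellus at 4300, 3779 and 5152 CPM, but WT nucellus held 2110, 8681 and 55057 CPM. WT integument was likewise at 2544, 11437 and 29639 CPM, against 4366, 4159 and 4483 CPM in MT. Its difference of -1.17 ± 0.96 (limma adjusted p = 0.716) was no larger than the spread between the WT units. The most abundant feature of all, c94721_g1, differed by 0.14 ± 0.32 (limma adjusted p = 0.913). These 3 were chosen by their level.

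Depth and the spread between units set how small a difference could be bounded. The median half-width of the 95% interval of the log2 fold change was 1.15 in class 1, and 0.92, 0.66 and 0.54 in classes 2, 3 and 4. For 21160 features (36.9%) the interval excluded any difference of 2-fold or more, 351 of them in class 1 and 9849 in class 4. For the other features a 2-fold difference between the cultivars was not excluded.

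The differences at 18 DAP were then set beside those of the later stages. No feature passed the test of the 18 DAP difference against the mean of the 28 and 32 DAP differences over the units (0%, smallest adjusted p 0.464, limma). At an unadjusted p under 0.05, 3433 were listed (5.99%). Of the 5930 features listed for the mean at 18 DAP, 3494 (58.9%) had the same sign at 28 DAP, against 49.9% of all tested. Of them, 550 (9.27%) were also listed in the same direction at 28 DAP and 154 in the opposite one. Of all features 9.39% were listed there, a share that counts both directions and so is no background for the 9.27%. At 32 DAP 3907 (65.9%) had the same sign, against 59.7% of all tested. There 623 (10.5%) were listed in the same direction and 130 in the opposite one. The 12.5% of all features listed at 32 DAP again counts both directions, unlike the 10.5%. Across features, the difference at 18 DAP correlated with that at 28 DAP by r = -0.01 and with that at 32 DAP by r = 0.27. The stages share no libraries.

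Of the features named from this comparison, c37992_g1 was at 17.4 to 33.6 CPM in MT and 11.8 to 16.4 CPM in WT nucellus at 18 DAP, and at 15.9 to 26.0 CPM in MT and 8.52 to 13.4 CPM in WT integument. The MT values were above the WT values in both tissues. In integument at 32 DAP the MT level was the lower one, with a log2 difference of -1.45 (edgeR adjusted p = 0.0404). c92640_g1 had the same order, with -1.54 in integument at 32 DAP (edgeR adjusted p = 0.027). Both c37992_g1 and c92640_g1 were chosen by the contrast of 18 DAP with the later stages, among features separated at 18 DAP. Their values at 32 DAP entered that choice and are no separate support for a change of sign. These features correlated with r = 0.964 over the 36 libraries, so they are not separate evidence. The 18 DAP difference minus the later ones was 1.54 for c37992_g1 and 1.53 for c92640_g1 (limma adjusted p = 0.464 for both). c27656_g1 and c85232_g1 were lower in MT at 18 DAP in both tissues, and their 18 DAP difference minus the later ones was -1.78 and -1.24 (limma adjusted p = 0.763 and 0.822).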

How the data were processed

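RNA-seq of laser-captured ovule nucellus and integument was analysed, with each sample placed in its group by its title. The authors deposited whole-number read counts and FPKM for 128861 features. Tools named in the submitters' processing notes are Bowtie2, cutadapt, DESeq and RSEM. Their roles, the reference sequence and its build are not given in the sources used here, nor is whether the counts are rounded RSEM estimates. RSEM splits reads between similar sequences. RNA was amplified (Ovation RNA-seq V2) and sequenced on either of a pair of Illumina models, per the labels' protocols, which do not assign libraries to models. Column names give the stage as a digit, read as 18, 28 and 32 DAP in the design text's order.

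Counts were tested in R 4.3.3 with edgeR 4.0.16 (filterByExpr over 12 groups, TMM, quasi-likelihood, 36 libraries, no replicate block). Unit means and unit differences of log2 CPM (prior count 2) were tested with limma 3.58.1 (trend, robust, 18 units). P-values were adjusted over all 57344 tested features by Benjamini-Hochberg and called under 0.05. Replicate intervals reflect only the spread between these samples. Named features were, per comparison, called ones at or above the median level with all MT libraries on 1 side of all WT ones. Units took the place of libraries in the unit tests. Up to 2 each way were taken by fold change. Gaps were filled by the smallest p among uncalled features that met the same conditions of level and separation. All called features were named where 5 or fewer were called. Scripts were tested on simulated data. Comparisons, members and lists were chosen with earlier results of these data known. Alternatives were other scalings, filters, pseudocounts for the deposited FPKM, DESeq2 1.42.0, voom, and leaving out libraries or units.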

Additional observations from a re-analysis of the deposited data

Results flagged for a closer look

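Features named above were compared between tissues and stages for cultivar differences in which every library moved one way in 1 setting and the opposite way in another. All values are MT minus WT log2 fold changes from edgeR, and the difference between the settings was not tested on these single contrasts. Of the values below, those of c1342_g1 in integument at 18 DAP and of c37992_g1 and c92640_g1 in integument at 32 DAP passed in edgeR (adjusted p = 0.0153, 0.0404 and 0.027), and the others did not (adjusted p from 0.093 to 0.753). c37992_g1 was at 0.69 in nucellus and 0.90 in integument at 18 DAP, and at -1.25 in nucellus at 28 DAP, -0.40 in nucellus at 32 DAP and -1.45 in integument at 32 DAP. Its near twin in profile, c92640_g1, was at 0.69 and 0.75 at 18 DAP, -1.12 in nucellus at 28 DAP and -1.54 in integument at 32 DAP. Both features were chosen by the contrast of 18 DAP with the later stages, a choice that favours opposite signs. c127234_g1 was at 0.70 in nucellus and 1.02 in integument at 18 DAP, and at -0.35 in nucellus at 32 DAP. c1342_g1 was at -1.55 in nucellus and a fitted -7.60 in integument at 18 DAP, which is no bound because all MT libraries were at 0, and it was at 1.03 in nucellus at 28 DAP, on 7, 11 and 7 counts in MT and 0, 7 and 4 in WT. c116140_g1 was at -0.74 in nucellus and 0.59 in integument at 18 DAP, and at -1.12 in nucellus at 32 DAP.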

How the results depend on the processing

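The counts of called features were small and moved with most settings. For nucellus (1 called) and integument (4 called), no filter on low counts gave 0 and 0, only the 18 DAP libraries 0 and 0, and only the 6 compared libraries 0 and 0. With log2(FPKM + 1) they were 16 and 7, with log2(FPKM + 0.1) 5 and 14, and with DESeq2 16 and 115. Voom with quality weights gave 1 in nucellus and 26 in integument. The replicate block gave 2 in nucellus and 1 in integument. The labels do not say that numbers pair MT with WT. Deviations of same-numbered MT and WT libraries correlated at 18 DAP by 0.0421 to 0.420, over 0.1 in 4 of 6 pairs, and 3 of 6 nucellus and 4 of 6 integument libraries correlated best with their own number, a hint of pairing from the data and not from the design. Leaving out single libraries gave 0 to 1 in nucellus and 0 to 16 in integument. For the mean over both tissues (0 called), edgeR with libraries taken as independent gave 363, voom with the unit as random block gave 6 and a prior count of 0.5 gave 1. The other alternatives, leaving out a unit and the replicate block among them, gave 0. The tissue difference and the difference from later stages stayed at 0 under every alternative run. The cause of these shifts was not tested. Over 33 settings, 398 of 469 values of the 25 named results kept their direction and side of the threshold, 50 lost a call, 21 gained one and 0 reversed. Called features lost their call in 9 of 22 settings (c6063_g1), 9 of 22 (c1342_g1), 15 of 22 (c7758_g1), 7 of 21 (c63760_g1) and 10 of 22 (c64041_g1). Their log2 fold changes ranged from -2.96 to -1.11 (c6063_g1), -7.63 to -2.94 (c1342_g1), -3.82 to -2.34 (c7758_g1), -7.09 to -0.64 (c63760_g1) and -3.24 to -0.71 (c64041_g1), and the values nearest 0 of c1342_g1, c63760_g1 and c64041_g1 came with log2(FPKM + 1). With 3 libraries or units a side and a common biological coefficient of variation of 0.44, intervals were widest for low-count features, with 351 in the lowest class of abundance bounded within 2-fold.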
